A study of Mus musculus with 6 samples.

Results

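The mitochondrial genome (chromosome MT) contributes 37 of the 54715 genes in the count table of this study, and every row placed on chromosome MT was taken. These are the 13 protein-coding genes, the 2 rRNA genes and the 22 tRNA genes of mouse mitochondrial DNA, with 28 genes on the plus strand and 9 on the minus strand as the table lists them. Bulk RNA-Seq was performed on WT ASCs and *Bdh2*-knockout ASCs, with 3 replicates each. ASCs are advanced embryonic stem cells, a mouse pluripotent stem cell line kept in medium with leukemia inhibitory factor, CHIR99021, BMP4 and Activin A. Both genotypes come from a cross of a female 129/sv mouse with a GOF/GFP male mouse, so both carry the GOF/GFP reporter. *Bdh2*, which encodes a 3-hydroxybutyrate dehydrogenase, was disrupted by CRISPR/Cas9, and the study describes the line it took forward as one clone with a bi-allelic deletion, so genotype and clone cannot be told apart. Nothing in the sources used here says that the 3 replicates of a genotype were separate cultures, and the p-values then measure only the spread between these samples, which may be technical.

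Mitochondrial DNA is transcribed from both strands into long precursors that cover most of the genome. The tRNAs lie between the mRNAs and rRNAs, and their excision by RNase P at the 5′ end and by the RNase Z enzyme Elac2 at the 3′ end releases the flanking RNAs, which then differ in abundance in large part through how long each is kept. The 13 proteins are all subunits of the respiratory chain or of ATP synthase and are assembled with many subunits encoded in the nucleus. The library kit named in the labels is sold for poly(A) selection and does not mark strand, so reads of a gene and of its antisense transcript are counted together. Mature tRNAs carry no poly(A) tail.

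The libraries held 18927748 to 28333541 counts, and 3 counts, the floor used here, correspond to 0.106 to 0.158 CPM (counts relative to the total of each library), which covers counting error only. *Bdh2* had counts of 203, 193 and 209 in WT ASCs against 164, 136 and 129 in *Bdh2*-knockout ASCs (log2 fold change -0.79 ± 0.12 SE, edgeR adjusted p = 0.000246), so its transcript was lower but present. The summed level of 10 pluripotent stem cell markers was 7564 to 7592 CPM in WT ASCs and 7316 to 7474 CPM in *Bdh2*-knockout ASCs, with all 10 detected. All 22 adult hepatocyte markers had counts, and their summed level was 598, 358 and 43.8 CPM in WT ASC replicates 1, 2 and 3 against 31.2, 154 and 17.5 CPM in *Bdh2*-knockout ASCs, so WT replicates 1 and 2 stood highest and *Bdh2*-knockout replicate 2 stood above the other 3 libraries. All 8 striated muscle markers had counts, at 149 to 160 CPM in WT ASCs and 245 to 262 CPM in *Bdh2*-knockout ASCs, nearly all from *Mylpf* (145 to 156 and 239 to 257 CPM). Fibroblast markers (9 genes, with *Fap* at 0) summed to 32.8 to 36.6 and 23.2 to 28.6 CPM, and erythroid markers (7 genes, with *Hbb-bt* at 0) to at most 1.90 CPM. Hepatocytes and muscle are rich in mitochondria. Values without WT replicates 1 and 2, and with the level of the hepatocyte markers as a covariate, are given where they end a call or turn a direction, and the part of muscle RNA in the results was not tested.

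Transcripts of the mitochondrial genome made up a small share of the counts, which differed between the genotypes by less than the spread between replicates. The levels of single genes within it differed in both directions. Chromosome MT took 2.36%, 2.69% and 1.93% of the counts in WT ASC replicates 1, 2 and 3 and 2.41%, 2.23% and 2.03% in *Bdh2*-knockout ASC replicates 1, 2 and 3. The ranges overlapped, with means of 2.32% ± 0.381 (SD, n = 3) and 2.22% ± 0.187 (SD, n = 3; two-sided exact permutation test, p = 0.800, where 0.1 is the smallest p that 3 against 3 allows). The direction of this small difference turned without WT replicate 2 (0.0829 percentage points higher in *Bdh2*-knockout ASCs) and without WT replicates 1 and 2 together (0.293 points higher). In bulk RNA, fewer cells and less RNA per cell cannot be told apart. The protein-coding genes alone took 2.26% ± 0.372 and 2.15% ± 0.185 (exact p = 0.800), and the tRNA genes 0.00954% ± 0.00172 and 0.00834% ± 0.00130 (exact p = 0.500).

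The rRNA share was the one class that did not overlap. The 2 rRNA genes took 0.0540%, 0.0582% and 0.0438% of the counts in WT ASCs and 0.0665%, 0.0633% and 0.0630% in *Bdh2*-knockout ASCs, 1.24 times as much on average (exact permutation test, p = 0.1, the smallest possible). The log2 ratio of rRNA to mRNA counts, which does not depend on scaling between libraries, was -5.41, -5.49 and -5.42 in WT ASCs and -5.13, -5.09 and -4.96 in *Bdh2*-knockout ASCs. The groups did not overlap and differed by 0.38 on the log2 scale, a ratio 1.30 times as high (exact p = 0.1, the smallest possible). With values per length in place of counts the difference was 0.26, and without mt-Co1, the most abundant mRNA, it was 0.22. With a kit sold for poly(A) selection, the rRNA counts here and below hold only the rRNA that was captured. Whether its capture differed between the genotypes was not tested.

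**Figure D1:**
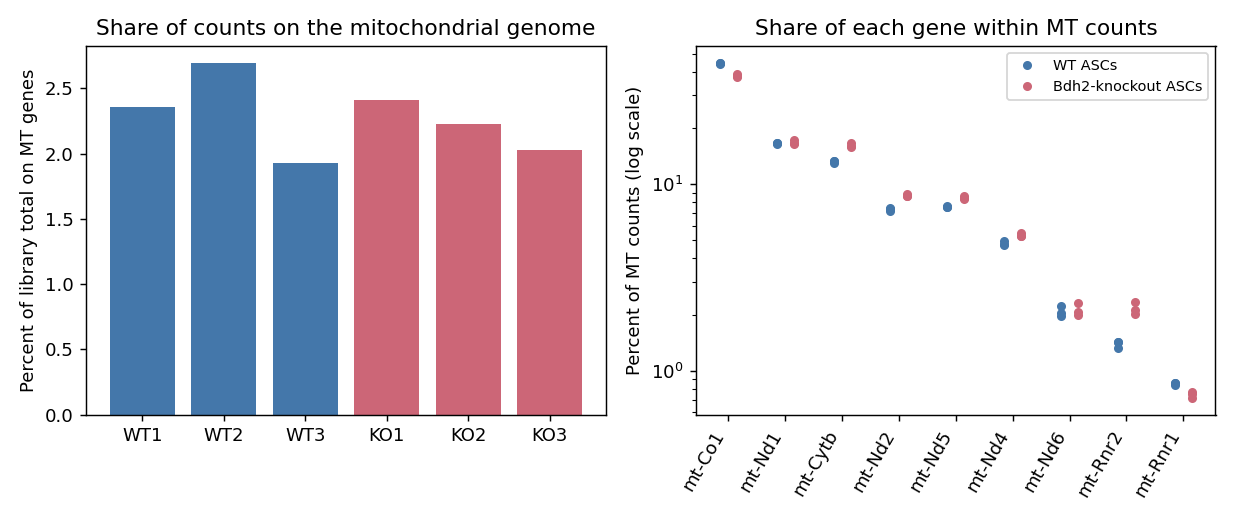
Left, percent of each library's counts on chromosome MT, 1 bar per library, in WT ASCs (blue) and *Bdh2*-knockout ASCs (red). Right, percent of the MT counts on each of the 7 abundant mRNAs and both rRNAs (log axis), 1 point per library: the genotypes overlap for mt-Nd1 and mt-Nd6, lie lower in *Bdh2*-knockout ASCs for mt-Co1 and mt-Rnr1, and lie higher for the other 5.

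Of the 37 genes, 35 had counts in at least 1 library. mt-Tf and mt-Ts1, the tRNAs for phenylalanine and one of the serine tRNAs, had 0 counts in all 6 libraries, which allows at most 0.106 to 0.158 CPM by depth. In all, 11 tRNA genes stayed under 10 counts in every library (highest value 7) and were not tested. The other 26 genes passed the filter on low counts, namely all 13 mRNAs, both rRNAs and 11 tRNAs. Among these, 8 passed an adjusted p of 0.05 in edgeR's quasi-likelihood test (30.8%), 4 of them higher and 4 lower in *Bdh2*-knockout ASCs. This balance moved to 7 higher and 2 lower with the hepatocyte marker covariate, 8 and 2 without WT replicates 1 and 2, 7 and 3 without WT replicate 2 and 6 and 3 without *Bdh2*-knockout replicate 3. Across all 16758 genes tested, 41.7% passed, 21.0% higher and 20.8% lower, so the share among mitochondrial genes lay below that of all genes. The median log2 fold change of the 26 genes was 0.07, against -0.01 over all genes tested. For 7 of the 26 (26.9%) the scaled values of the genotypes did not overlap, against 52.4% of all genes. By strand, 7 of 20 tested plus-strand genes and 1 of 6 minus-strand genes passed.

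Values below are CPM scaled by TMM (edgeR's correction of library totals) unless counts are named, in the order of replicates 1, 2 and 3. The rRNAs of the large and small mitochondrial ribosomal subunit lie next to each other on the plus strand, separated by mt-Tv. mt-Rnr2, the 16S rRNA (MT:1094-2675), stood at 329, 351 and 269 in WT ASCs and at 498, 484 and 480 in *Bdh2*-knockout ASCs. All 3 knockout values lay above all WT values, a log2 fold change of 0.62 ± 0.08 SE (edgeR adjusted p = 3.97e-05) that passed in each of the 17 alternatives (0.52 to 0.85). mt-Rnr1, the 12S rRNA (MT:70-1024), stood at 198, 221 and 163 in WT ASCs and at 185, 163 and 159 in *Bdh2*-knockout ASCs. Its values overlapped and the fold change did not pass (-0.20 ± 0.09 SE, edgeR adjusted p = 0.0986). It passed without WT replicate 3 (-0.31), with library totals in place of TMM (-0.26) and with no filter on low counts, and its sign turned without WT replicates 1 and 2 (0.05). The log2 ratio of mt-Rnr2 to mt-Rnr1 counts within a library, a comparison chosen after the values were seen, was 0.73, 0.67 and 0.72 in WT ASCs and 1.43, 1.57 and 1.59 in *Bdh2*-knockout ASCs. That is a ratio 1.77 times as high in *Bdh2*-knockout ASCs, and the replicates of each genotype lay close together.

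**Figure D2:**
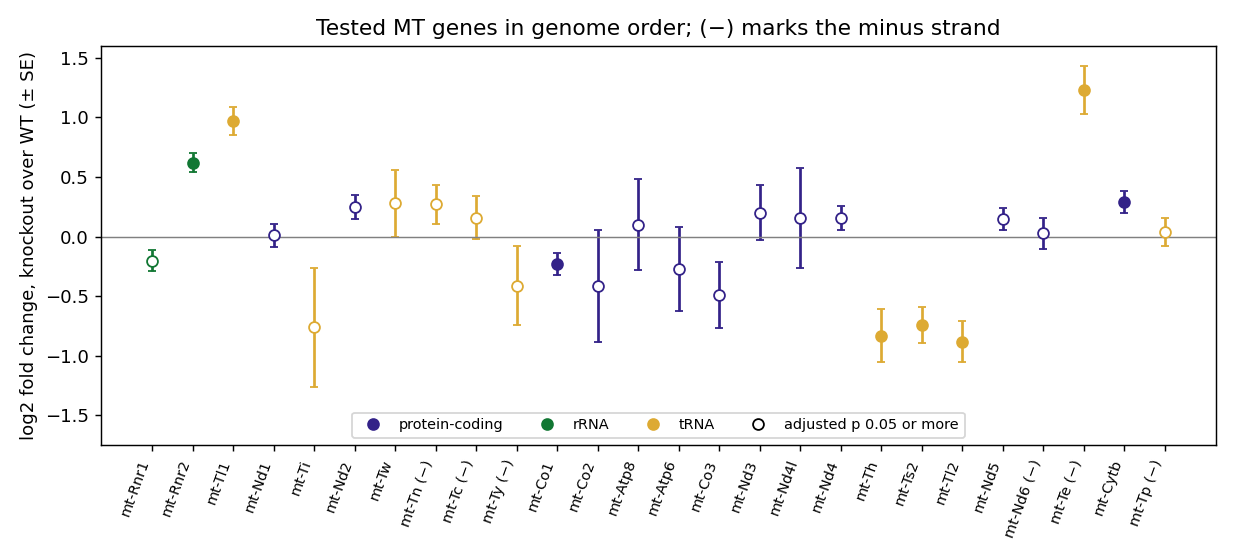
Log2 fold change of *Bdh2*-knockout over WT ASCs (y axis) with its standard error for the 26 tested mitochondrial genes in genome order. Filled points have an edgeR adjusted p under 0.05: mt-Rnr2, mt-Tl1, mt-Te and mt-Cytb lie above 0, and mt-Co1, mt-Th, mt-Ts2 and mt-Tl2 below.

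Of the 13 mRNAs, mt-Co1 and mt-Cytb passed the test (15.4%, against 41.7% of all genes tested), and the scaled values of the genotypes overlapped for all 13, while 52.4% of all genes did not overlap. Per length (TPM), the order of the 7 abundant mRNAs began with mt-Co1, mt-Nd1, mt-Cytb and mt-Nd2 in all 6 libraries. mt-Co1 stood at 19357 ± 2820 TPM in WT ASCs and 16401 ± 817 TPM in *Bdh2*-knockout ASCs (SD, n = 3), and was the gene with the highest mean TPM of the whole table. mt-Nd1 stood at 11697 ± 1873 and 11690 ± 1111 TPM, mt-Cytb at 7735 ± 1102 and 9411 ± 705 TPM, and mt-Nd2 at 4753 ± 822 and 5605 ± 466 TPM. mt-Nd5 stood at 2802 ± 408 and 3089 ± 257 TPM, mt-Nd6 at 2704 ± 536 and 2736 ± 420 TPM, and mt-Nd4 at 2345 ± 405 and 2592 ± 234 TPM. mt-Nd5 lay above mt-Nd4 in all 6 libraries, and the place of mt-Nd6 beside them differed between libraries. These 7 genes held 95.7% to 96.5% of all mitochondrial counts.

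mt-Co1 encodes the catalytic subunit of cytochrome c oxidase (complex IV), which passes electrons to oxygen. It stood at 10325, 11614 and 8490 in WT ASCs and at 9256, 8630 and 8082 in *Bdh2*-knockout ASCs (log2 fold change -0.23 ± 0.09 SE, edgeR adjusted p = 0.0460). The ranges overlapped, and the call was lost in DESeq2, in limma-voom, with a hepatocyte marker covariate and without any 1 of the libraries except WT replicate 3 (-0.34 to -0.12 with 1 library left out). Without WT replicates 1 and 2 the value was 0.03, so the sign turned. mt-Cytb encodes cytochrome b, the only mitochondrially encoded subunit of complex III. It stood at 3058, 3424 and 2520 in WT ASCs and at 3938, 3789 and 3308 in *Bdh2*-knockout ASCs, where 1 knockout value lay within the WT range (log2 fold change 0.29 ± 0.09 SE, edgeR adjusted p = 0.0185). This call was lost in DESeq2, without *Bdh2*-knockout replicate 1 (0.26) and without *Bdh2*-knockout replicate 2 (0.28). The value was 0.18 without WT replicate 3, 0.54 without WT replicates 1 and 2 and 0.47 with the hepatocyte marker covariate, and passed in all 3.

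Within a library the same mRNAs were apportioned with far less spread. mt-Co1 held 44.9%, 44.0% and 44.7% of the mitochondrial counts in WT ASCs and 37.4%, 37.9% and 39.2% in *Bdh2*-knockout ASCs. mt-Cytb held 13.3%, 13% and 13.3% in WT ASCs and 15.9%, 16.6% and 16% in *Bdh2*-knockout ASCs. The log2 ratio of mt-Co1 to mt-Cytb, chosen after the values were seen, was 1.76, 1.76 and 1.75 in WT ASCs and 1.23, 1.19 and 1.29 in *Bdh2*-knockout ASCs, which is 0.697 times the WT ratio. The complex I genes mt-Nd2 (7.33%, 7.48% and 7.17% against 8.88%, 8.64% and 8.70%), mt-Nd4 and mt-Nd5 also held larger shares in every *Bdh2*-knockout library, while mt-Nd1 held 16.7%, 16.7% and 16.5% against 17.3%, 16.6% and 16.5%. Such shares sum to a fixed total, and a lower share of the largest gene raises the rest. With mt-Co1 left out of the sum, mt-Cytb (1.10 times) and mt-Nd2 (1.07 times) were still higher in every *Bdh2*-knockout library, mt-Nd4 and mt-Nd5 overlapped, and mt-Nd1 was lower (0.905 times). Over all 26 tested genes the shares of MT counts did not overlap for 12, with 7 higher and 5 lower in *Bdh2*-knockout ASCs. With mt-Co1 left out of the sum it was 11 of 25, with 5 higher and 6 lower, so the balance turned, and for library-scaled values of all genes the share without overlap was 52.4%.

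In the fit across libraries, where the total of the mitochondrial genes varied more between replicates, none of the 7 complex I mRNAs passed. Their log2 fold changes ran from 0.01 ± 0.10 SE for mt-Nd1 (edgeR adjusted p = 0.944) to 0.25 ± 0.10 SE for mt-Nd2 (edgeR adjusted p = 0.0699). mt-Nd2 stood at 1685, 1972 and 1363 in WT ASCs and at 2199, 1970 and 1796 in *Bdh2*-knockout ASCs and passed in 6 of the 17 alternatives, among them without WT replicate 2 (0.38), without WT replicates 1 and 2 (0.54), with the hepatocyte marker covariate (0.43) and without *Bdh2*-knockout replicate 3 (0.33). mt-Nd5 (0.15 ± 0.09 SE) and mt-Nd4 (0.16 ± 0.10 SE) passed in 4 alternatives each, among them without WT replicate 2 (0.27 and 0.30), without WT replicates 1 and 2 (0.40 and 0.43) and with the covariate (0.32 for both). mt-Nd1 stood at 3843, 4414 and 3132 in WT ASCs and at 4279, 3778 and 3414 in *Bdh2*-knockout ASCs, with overlapping ranges, and passed without WT replicates 1 and 2 (0.29).

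mt-Nd6 is the only mRNA of the minus strand (MT:13552-14070), and its last 14 bases overlap the end of mt-Nd5 on the plus strand. It had counts of 8805, 11794 and 9870 in WT ASCs against 15864, 12851 and 9825 in *Bdh2*-knockout ASCs (log2 fold change 0.03 ± 0.13 SE, edgeR adjusted p = 0.874). Its log2 ratio to the summed plus-strand mRNAs was -5.59, -5.42 and -5.53 in WT ASCs and -5.35, -5.52 and -5.57 in *Bdh2*-knockout ASCs, which overlapped (difference 0.04, exact permutation test, p = 0.600). The sign turned without *Bdh2*-knockout replicate 1 (-0.03) and without mt-Co1 in the sum (-0.13). With counts that do not separate strands, this ratio holds antisense reads of either gene.

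The tRNA genes had both the largest increases and the largest decreases of the mitochondrial genome. With a kit sold for poly(A) selection, mature tRNA and longer RNA that spans the gene cannot be told apart in these counts. Of the 11 tested, 5 passed (45.5%), 2 higher and 3 lower, and 6 (54.5%) did not overlap. Over all genes tested these shares were 41.7% and 52.4%, close to those of the tRNAs. The sequences of these 5 genes show where each lies and which anticodon (capitals) it carries, as annotated in the GENCODE M21 transcripts of GRCm38 and written 5′ to 3′ on the gene's own strand.
mt-Tl1: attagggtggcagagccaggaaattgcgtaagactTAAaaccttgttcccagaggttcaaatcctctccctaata
mt-Te: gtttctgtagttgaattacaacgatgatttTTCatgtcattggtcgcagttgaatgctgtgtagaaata
mt-Th: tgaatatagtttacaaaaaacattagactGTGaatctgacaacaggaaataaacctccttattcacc
mt-Ts2: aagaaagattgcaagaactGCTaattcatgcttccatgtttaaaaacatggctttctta
mt-Tl2: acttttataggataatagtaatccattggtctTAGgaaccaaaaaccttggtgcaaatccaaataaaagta

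mt-Tl1, a leucine tRNA (plus strand, MT:2676-2750), fills the space between mt-Rnr2 and mt-Nd1 with no base between it and either neighbour. It had counts of 78, 77 and 106 in WT ASCs against 200, 220 and 199 in *Bdh2*-knockout ASCs. All knockout values lay above all WT values, also after scaling (4.02, 3.81 and 4.20 against 7.26, 8.07 and 8.30), a log2 fold change of 0.97 ± 0.12 SE (edgeR adjusted p = 4.68e-05). Of its neighbours, mt-Rnr2 rose and mt-Nd1 did not pass. The log2 ratio of mt-Tl1 to mt-Nd1 was 0.95 higher in *Bdh2*-knockout ASCs without overlap, while that of mt-Tl1 to mt-Rnr2 overlapped (0.34 higher); both ratios were chosen after the values were seen.

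mt-Te, the glutamate tRNA (minus strand, MT:14071-14139), lies between mt-Nd6, which it directly precedes on the minus strand, and mt-Cytb on the other strand. It had counts of 27, 22 and 35 in WT ASCs against 80, 92 and 67 in *Bdh2*-knockout ASCs. The scaled values were 1.39, 1.09 and 1.39 against 2.90, 3.37 and 2.80, again without overlap, for the largest fold change of the mitochondrial genome (log2 fold change 1.23 ± 0.20 SE, edgeR adjusted p = 0.000384). The mRNA on its own strand, mt-Nd6, did not pass, and the ratio of mt-Te to mt-Nd6 was 1.20 higher on the log2 scale without overlap, a comparison chosen after the values were seen. At these counts, and without strand, reads of mt-Te and of RNA antisense to it cannot be told apart.

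The 3 tRNAs that were lower lie side by side on the plus strand between mt-Nd4 (which ends at 11544) and mt-Nd5 (which starts at 11742). These are mt-Th for histidine (MT:11546-11612), mt-Ts2 for serine (MT:11613-11671) and mt-Tl2 for leucine (MT:11671-11741), and mt-Ts2 and mt-Tl2 share 1 base. mt-Tl2 had counts of 484, 659 and 537 in WT ASCs against 484, 404 and 239 in *Bdh2*-knockout ASCs. Scaled, it stood at 24.9, 32.6 and 21.3 against 17.6, 14.8 and 9.97 without overlap (log2 fold change -0.88 ± 0.17 SE, edgeR adjusted p = 0.00130). mt-Ts2 stood at 5.31, 6.04 and 4.75 against 3.45, 3.19 and 2.92, also without overlap (log2 fold change -0.74 ± 0.15 SE, edgeR adjusted p = 0.00159). mt-Th stood at 6.08, 8.22 and 4.47 against 4.36, 3.34 and 2.75, without overlap but with its highest knockout value close to its lowest WT value (log2 fold change -0.83 ± 0.22 SE, edgeR adjusted p = 0.00819).

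The mRNAs on both sides of this cluster, mt-Nd4 and mt-Nd5, did not pass the test. The log2 ratio of mt-Tl2 to mt-Nd5, chosen after the values were seen, was -6.13, -5.93 and -6.10 in WT ASCs and -6.89, -7.06 and -7.43 in *Bdh2*-knockout ASCs, 0.476 times the WT ratio. mt-Tl1, mt-Te and mt-Tl2 passed in each of the 17 alternatives, with log2 fold changes of 0.90 to 1.04, 1.12 to 1.29 and -1.06 to -0.58. mt-Ts2 lost its call without WT replicates 1 and 2 (-0.57), and mt-Th did so there (-0.36), without WT replicate 2 (-0.59) and with the hepatocyte marker covariate.

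**Figure D3:**
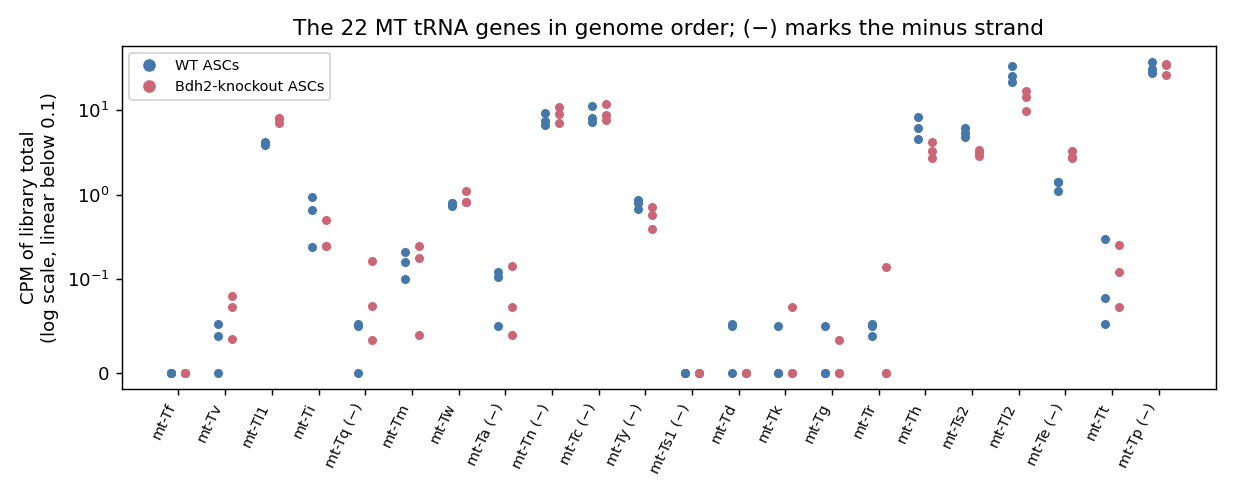
Counts on each of the 22 tRNA genes in genome order (CPM of the library total, log axis, linear below 0.1), 1 point per library in WT ASCs (blue) and *Bdh2*-knockout ASCs (red). The points separate upwards for mt-Tl1 and mt-Te and downwards for mt-Th, mt-Ts2 and mt-Tl2, and 11 genes stay near or at 0. For mt-Tw, which did not pass the test, they separate upwards by a narrow margin.

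The other tested tRNAs did not pass. mt-Tp, the proline tRNA, which has the highest position of the 37 genes and lies on the minus strand, was the tRNA with the highest scaled values and stood at 29.8, 37 and 27.4 in WT ASCs and 34.9, 35.5 and 26.2 in *Bdh2*-knockout ASCs (log2 fold change 0.04 ± 0.12 SE). mt-Tn stood at 7.21, 9.21 and 6.57 against 11.4, 9.13 and 7.09 (0.27 ± 0.16 SE, passing without *Bdh2*-knockout replicate 3 at 0.43), and mt-Tc at 7.93, 11.0 and 7.08 against 12.2, 8.98 and 7.72 (0.16 ± 0.18 SE), all overlapping. The remaining 3 were near the floor of counting. mt-Tw was counted 14 to 20 times in WT ASCs and 20 to 31 times in *Bdh2*-knockout ASCs, mt-Ty 15 to 17 and 11 to 20 times, and mt-Ti 6 to 18 and 6 to 14 times. Scaled, mt-Tw stood at 0.721, 0.793 and 0.792 against 1.13, 0.843 and 0.835, narrowly without overlap (log2 fold change 0.28 ± 0.28 SE, edgeR adjusted p = 0.450).

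The counts of 5 mRNAs were uncertain. For mt-Co2, mt-Co3, mt-Atp6, mt-Nd3 and mt-Nd4l, which encode 2 subunits of complex IV, 1 of ATP synthase and 2 of complex I, 98.0% to 100% of all 50-base stretches also occur in annotated genes outside chromosome MT. Together 40.3% of the 50-base stretches of the 13 mRNAs (4344 of 10766) have such a match, in 14 genes, 7 of them on chromosome 1. The share was 62.2% for mt-Nd4, 51.1% for mt-Co1, under 10% for mt-Nd2 and mt-Nd5 (8.19% and 7.61%), and 0% for mt-Nd1, mt-Cytb, mt-Nd6, mt-Atp8, mt-Rnr1 and every tRNA. Only annotated transcripts were searched, so 0% does not exclude a copy elsewhere in the nuclear genome. How reads with several matches were counted is not given in the sources used here. The 5 genes stood at 23.6 (mt-Nd3) to 544 TPM (mt-Co2) in WT ASCs, below each of the 7 abundant mRNAs. In edgeR's test 0 of the 5 passed, against 41.7% of all genes tested. At an unadjusted edgeR p under 0.05 it was also 0 (the lowest was 0.0970 for mt-Co3), and 0 passed by DESeq2 and by limma-voom. Without the filter on low counts, mt-Co2, mt-Atp6 and mt-Co3 passed, and mt-Co3 also passed without WT replicate 2 (-0.81) and without WT replicates 1 and 2 (-0.95).

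The replicates of these 5 genes differed more than those of the 7 abundant mRNAs, least so for mt-Nd3, whose log2 CPM had an SD of 0.34 in WT ASCs and 0.38 in *Bdh2*-knockout ASCs (at most 0.30 and 0.24 for the abundant mRNAs). mt-Co2 had counts of 1553, 4956 and 1377 in WT ASCs against 4600, 1656 and 1354 in *Bdh2*-knockout ASCs, and mt-Nd4l had 164, 521 and 407 against 339, 950 and 215. mt-Atp6 had counts of 973, 1647 and 2946 in WT ASCs against 2284, 2668 and 626 in *Bdh2*-knockout ASCs, and mt-Co3 had 774, 369 and 1260 against 798, 864 and 388. The highest count fell in WT replicate 2 for mt-Co2, in WT replicate 3 for mt-Atp6 and mt-Co3, and in *Bdh2*-knockout replicate 2 for mt-Nd4l. The standard errors of the log2 fold changes of all 5 genes ran from 0.23 to 0.47, against 0.09 to 0.13 for the 7 abundant mRNAs.

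The nuclear copies held counts of their own. On the minus strand of chromosome 1, 6 unprocessed pseudogenes within 4031 bases (1:24611535-24615565) repeat mt-Co2, mt-Atp6, mt-Co3, mt-Nd3, mt-Nd4l and mt-Nd4 in the order of the mitochondrial genome. Gm28661, the copy of mt-Co2, had counts of 765, 465 and 704 in WT ASCs against 1169, 827 and 2213 in *Bdh2*-knockout ASCs. It passed as higher (log2 fold change 0.87 ± 0.31 SE, edgeR adjusted p = 0.0380) with overlap, and the call was lost without *Bdh2*-knockout replicate 3 (0.29), WT replicate 2 (0.71) or WT replicate 3 (0.81), without WT replicates 1 and 2 (0.97), with the hepatocyte marker covariate (0.43), in DESeq2 and in limma-voom. Gm28438, the copy of mt-Nd3, had counts of 1144, 1414 and 1180 in WT ASCs against 1222, 1009 and 637 in *Bdh2*-knockout ASCs (log2 fold change -0.69 ± 0.16 SE, edgeR adjusted p = 0.00314), and this call was lost without WT replicates 1 and 2 (-0.37). That is more than mt-Nd3 itself, at 51, 71 and 56 counts in WT ASCs and 116, 77 and 60 counts in *Bdh2*-knockout ASCs.

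The reference sequences of this pair show how alike they are. The cells come from the cross of mice named at the start, and their own mitochondrial sequence was not read. Whether they carry the difference given here, and whether it bears on how reads were divided between gene and copy, was not tested. Over the 345 bases compared they differ at 1, T3C, counted from 1 at the 5′ end of mt-Nd3 (position 9461 of MT), and the first 40 bases of each are given with that base in capitals (MT:9459-9498, plus strand, and 1:24613080-24613119, minus strand, GENCODE M21 transcripts, GRCm38).
mt-Nd3: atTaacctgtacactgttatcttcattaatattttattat
Gm28438: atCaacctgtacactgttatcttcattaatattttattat
With the counts of the copies added to the mitochondrial gene, mt-Nd3 stood at 1195, 1485 and 1236 counts in WT ASCs and 1338, 1086 and 697 counts in *Bdh2*-knockout ASCs. Its log2 fold change then turned from 0.20 ± 0.23 SE (edgeR adjusted p = 0.503) to -0.64 (edgeR adjusted p = 0.00506). The other 4 genes still did not pass when summed in this way, and mt-Co1 and mt-Nd4 stayed at -0.23 and 0.16. The copies of mt-Co1 held few counts beside the gene itself (207 or fewer for Gm29216 in WT ASCs against 200431 or more for mt-Co1).

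**Figure D4:**
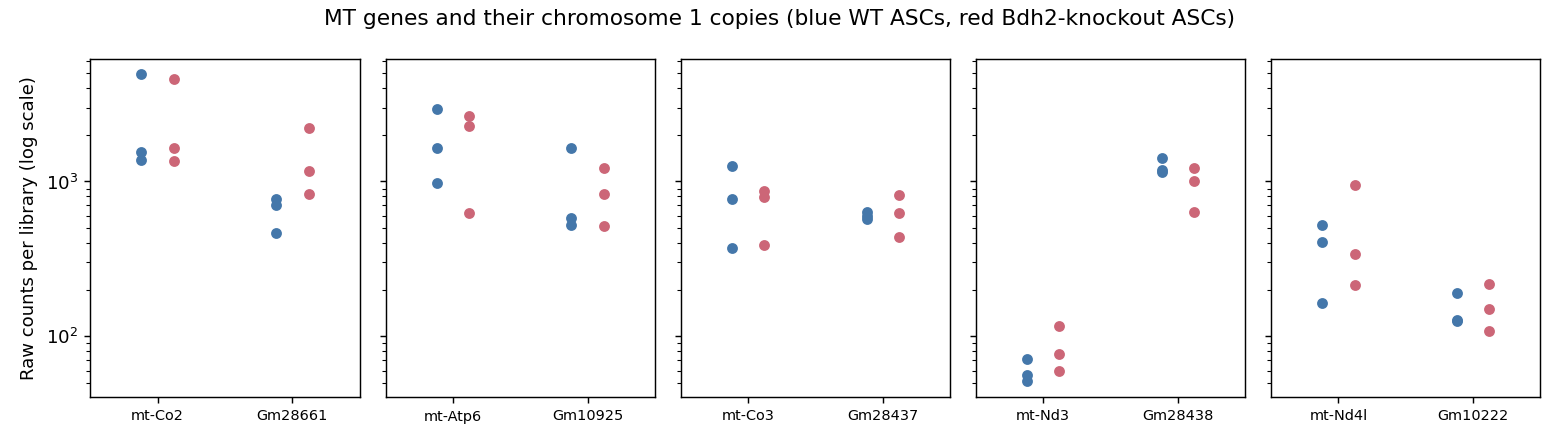
Raw counts per library (log axis) of 5 mitochondrial mRNAs and, beside each, of its copy on chromosome 1, in WT ASCs (blue) and *Bdh2*-knockout ASCs (red), 1 point per library. mt-Nd3 lies at 51 to 116 counts below its copy Gm28438 at 637 to 1414, and the replicates of mt-Co2, mt-Atp6, mt-Co3 and mt-Nd4l are widely spread.

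mt-Atp8 has no annotated copy but was also low, at 44, 14 and 21 counts in WT ASCs and 33, 31 and 40 in *Bdh2*-knockout ASCs (log2 fold change 0.10 ± 0.38 SE, edgeR adjusted p = 0.861). It lies between mt-Co2 and mt-Atp6, and the 233 bases between the copies of those genes on chromosome 1 hold no annotated gene with a match to it. The bases themselves were not searched, so a copy outside annotated genes, of mt-Atp8 or of a tRNA, would not have been found. Its last 43 bases (MT:7927-7969) are also the first 43 of mt-Atp6, whose start codon is in capitals.
mt-Atp8/mt-Atp6 overlap: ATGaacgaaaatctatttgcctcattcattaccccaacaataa
The tRNA genes of the same stretch were low as well: mt-Ts1, mt-Td, mt-Tk, mt-Tg and mt-Tr, the 5 between mt-Co1 and mt-Nd4, had at most 4 counts in any library. Of the 17 tRNA genes elsewhere, 11 reached 10 counts, and this division was made after the values were seen.

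The mitochondrial mRNAs were then set against the nuclear subunits of the same complexes. The log2 ratio of summed TPM of the 13 mitochondrial mRNAs to summed TPM of 71 nuclear subunits was 1.36, 1.56 and 1.10 in WT ASCs and 1.5, 1.44 and 1.30 in *Bdh2*-knockout ASCs. The ranges overlapped (difference 0.08, exact permutation test, p = 0.700), and without WT replicate 3 the sign turned (-0.04). By complex, the ratio for complex III, which is mt-Cytb over its 9 nuclear partners, was 1.47, 1.63 and 1.22 against 1.82, 1.87 and 1.67 without overlap (difference 0.35, exact p = 0.1). For complex I it was 0.20 higher (exact p = 0.300), for complex IV the difference was -0.09 (exact p = 0.600), and for ATP synthase the difference was -0.39 (exact p = 0.600), the last resting on the poorly measured mt-Atp6 and mt-Atp8.

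The nuclear subunits themselves summed to 20617, 20688 and 20638 TPM in WT ASCs and 19951, 19503 and 19450 TPM in *Bdh2*-knockout ASCs, which did not overlap (0.951 times, exact p = 0.1). Of the 71, 6 passed as higher and 16 as lower (31.0% in all, against 41.7% of all genes tested), namely 3 higher and 11 lower of 36 in complex I, 1 lower of 9 in complex III, 4 lower of 11 in complex IV and 3 higher of 15 in ATP synthase. With library totals in place of TMM the split was 3 higher and 26 lower, and ATP synthase turned to 1 higher and 4 lower. Without WT replicates 1 and 2, 9 passed, and 11 with the hepatocyte marker covariate. The count also fell without *Bdh2*-knockout replicate 2 (11), WT replicate 1 (14) or WT replicate 2 (13), and without *Bdh2*-knockout replicate 3 it was 7 higher and 8 lower. With 1 library left out, complex I had 8 called without *Bdh2*-knockout replicate 2 and 9 without *Bdh2*-knockout replicate 3, WT replicate 1 or WT replicate 2. Complex IV had 2 without *Bdh2*-knockout replicate 2 or 3 or WT replicate 2. ATP synthase had 1 without *Bdh2*-knockout replicate 1 or 2 or WT replicate 2, and 7 (4 higher and 3 lower) without WT replicate 3, where complex III had 3. The 1 call of complex III was lost without *Bdh2*-knockout replicate 2 or 3 or WT replicate 1, without WT replicates 1 and 2 and with the hepatocyte marker covariate.

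Of the nuclear genes that replicate, transcribe, process and translate the mitochondrial genome, 192 were tested and 89 passed (46.4%), 46 higher and 43 lower. That is close to the 41.7% of all genes tested (21.0% higher and 20.8% lower), so the counts of the lists below are descriptions. The median log2 fold change was 0.02. With library totals in place of TMM the split was 26 higher and 58 lower (2731 and 4451 over all genes), and 47 passed without WT replicates 1 and 2. Genes named below are the largest changes of each list in either direction among those that passed, apart from those said to be chosen for their role.

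Factors that cut and keep mitochondrial RNA are the closest to the transcripts described above. Of 24, 9 rose and 4 fell (54.2%, against 41.7% of all genes; median 0.11). With library totals in place of TMM the balance turned to 2 higher and 4 lower. The count also fell without *Bdh2*-knockout replicate 2 (4 higher and 2 lower), without any 1 of *Bdh2*-knockout replicate 3, WT replicate 1 and WT replicate 2 (5 and 3 in each case) and without WT replicates 1 and 2 (3 and 3). *Elac2*, which cuts tRNA 3′ ends, rose from 71.6, 73.7 and 82.0 to 97.0, 113 and 104 (log2 fold change 0.46 ± 0.07 SE, edgeR adjusted p = 0.000162). *Tbrg4*, which encodes the RNA-binding protein Fastkd4, rose by 0.50 ± 0.06 SE on the log2 scale. *Hsd17b10*, a subunit of mitochondrial RNase P, fell from 83.6, 79.9 and 76.0 to 59.4, 59.7 and 58.8 (log2 fold change -0.43 ± 0.05 SE, edgeR adjusted p = 4.17e-05). The other 2 subunits, named for their role after their values were seen, were *Trmt10c* (0.21, passed, but not without *Bdh2*-knockout replicate 2, at 0.20, or with library totals, at 0.15) and *1110008L16Rik*, the catalytic subunit Prorp (0.09, not passed). *Slirp* (-0.36), *Fastkd1* (-0.28) and *Fastkd3* (0.24) completed the named genes of the list. Slirp binds mRNA together with Lrpprc, and *Lrpprc*, named for this role after its value was seen, stood at 0.17. *Slirp* lost its call without *Bdh2*-knockout replicate 2 or 3 or WT replicate 1 or 2 (-0.44 to -0.29 with 1 library left out), *Fastkd3* without *Bdh2*-knockout replicate 2 or 3 or WT replicate 2 (0.14 to 0.32), and *Lrpprc* without *Bdh2*-knockout replicate 3 or WT replicate 1 or 2 (0.14 to 0.22).

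Of the 10 genes of the transcription list, 1 was higher (*Mterf4*, 0.20) and 1 lower (*Tefm*, the elongation factor, -0.26), and 4 passed without WT replicate 3. *Mterf4* lost its call without *Bdh2*-knockout replicate 1 or 3 or WT replicate 1 or 2 (0.18 to 0.24 with 1 library left out) and *Tefm* without *Bdh2*-knockout replicate 2 (-0.20). The RNA polymerase *Polrmt* (0.12, edgeR adjusted p = 0.116) and *Tfam*, which packages mitochondrial DNA and starts transcription (-0.05, edgeR adjusted p = 0.458), did not pass; these were named for their role after their values were seen. Of 18 genes of DNA replication and maintenance, 3 rose and 8 fell, against 1 and 6 without *Bdh2*-knockout replicate 2 and likewise without WT replicates 1 and 2. *Primpol*, a primase-polymerase (-0.84 ± 0.12 SE), *Rrm2b*, a ribonucleotide reductase subunit (-0.67 ± 0.12 SE), and *Polg2*, the accessory subunit of DNA polymerase gamma (-0.52 ± 0.11 SE), fell the most. *Opa1*, of inner membrane fusion, rose by 0.36 ± 0.05 SE, and *Mpv17* (0.21) and the helicase *Twnk* (0.15) passed but lost their calls without *Bdh2*-knockout replicate 2 or 3 or WT replicate 1 or 2 (0.17 to 0.27 and 0.12 to 0.20 with 1 library left out).

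**Figure D5:**
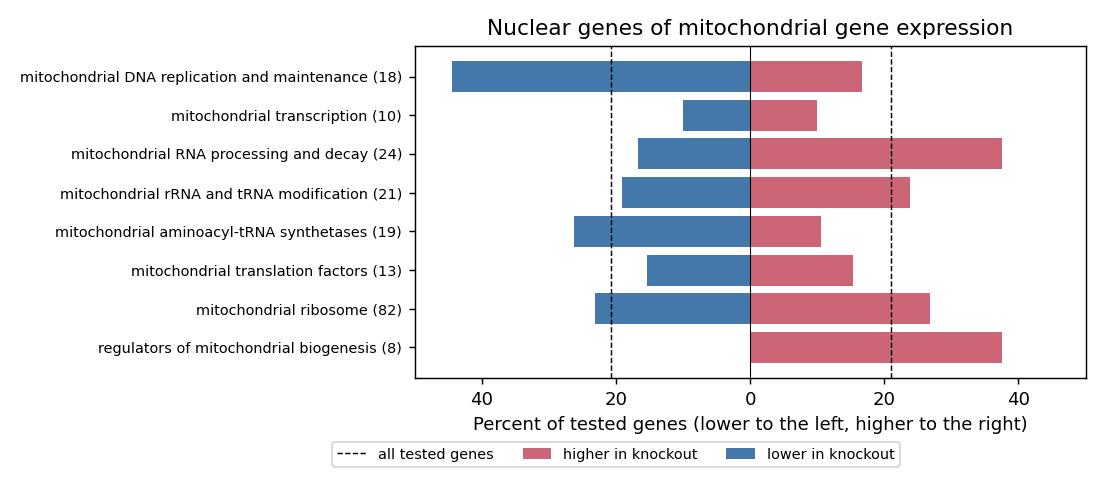
Percent of the tested genes of each list of nuclear genes for mitochondrial gene expression (number tested in brackets) that passed as lower (left, blue) and higher (right, red) in *Bdh2*-knockout ASCs. The dashed lines are the shares over all tested genes, 20.8% lower and 21.0% higher: replication and maintenance and the aminoacyl-tRNA synthetases lie past the left line, RNA processing, rRNA and tRNA modification and the biogenesis regulators past the right one, and the ribosome past both. With library totals in place of TMM, the balance turned for RNA processing (2 higher and 4 lower), for modification (4 and 7) and for the ribosome (13 and 24).

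Of 21 genes that modify mitochondrial rRNA and tRNA, 5 rose and 4 fell, against 4 and 7 with library totals in place of TMM. *Nsun3*, which modifies the wobble base of the methionine tRNA, rose from 9.79, 11.1 and 10.6 to 17.4, 16.5 and 15.6 (log2 fold change 0.65 ± 0.08 SE), *Mrm2*, a 2′-O-methyltransferase of the 16S rRNA, by 0.43 ± 0.07 SE and *Yrdc* by 0.36 ± 0.06 SE. *Trit1*, the tRNA isopentenyltransferase, had a log2 fold change of -0.53 ± 0.06 SE, *Mrm1*, another 16S rRNA methyltransferase, of -0.45 ± 0.06 SE and *Osgepl1* of -0.42 ± 0.14 SE. *Osgepl1* lost its call without *Bdh2*-knockout replicate 1 (-0.40), *Bdh2*-knockout replicate 2 (-0.34) or WT replicate 2 (-0.23). Of 19 aminoacyl-tRNA synthetases, 2 rose, *Sars2* (0.42) and *Yars2* (0.36), and 5 fell, led by *Gars* (-0.26), *Nars2* (-0.26, lost without *Bdh2*-knockout replicate 1 or 2 or WT replicate 1, -0.32 to -0.20) and *Iars2* (-0.25).

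Of 82 tested proteins of the mitochondrial ribosome, 22 rose and 19 fell, 41 in all (41.7% of all genes tested passed; median 0.03). With library totals in place of TMM the balance turned to 13 higher and 24 lower, and without WT replicates 1 and 2 it was 14 and 4. *Mrpl44* (0.43), *Mrps34* (0.39) and *Mrps7* (0.37) were the largest increases, and *Mrps10* (-0.47), *Mrps24* (-0.42) and *Mrpl32* (-0.39) the largest decreases. Of 13 translation factors, 2 rose, *Tufm* (0.27) and *Gfm1* (0.24), and 2 fell, *Guf1* (-0.51) and *Mtif2* (-0.23), against 2 and 5 with library totals. Of 8 regulators of mitochondrial biogenesis, 3 rose, *Pprc1* (0.35), *Yy1* (0.32) and *Gabpa* (0.17, lost without *Bdh2*-knockout replicate 1, at 0.15, or WT replicate 1, at 0.14). Without WT replicates 1 and 2, *Polg2* (-0.32), *Tufm* (0.13) and *Mtif2* (-0.14) lost their calls. So did *Slirp* (-0.24), *Fastkd3* (0.19), *Lrpprc* (0.09), *Mterf4* (0.14), *Tefm* (-0.23), *Mpv17* (0.10), *Twnk* (0.11), *Osgepl1* (-0.11), *Nars2* (-0.25) and *Gabpa* (0.14), each also lost with 1 library left out. With the hepatocyte marker covariate, *Mtif2* (-0.19), *Slirp* (-0.34), *Lrpprc* (0.11), *Mterf4* (0.13), *Mpv17* (0.15), *Twnk* (0.16), *Osgepl1* (-0.34) and *Gabpa* (0.13) lost theirs. With library totals in place of TMM, the calls of *Fastkd3* (0.18), *Lrpprc* (0.12), *Mterf4* (0.14), *Mpv17* (0.15), *Twnk* (0.10) and *Gabpa* (0.12) were lost, and in DESeq2 those of *Slirp*, *Mterf4*, *Mpv17*, *Twnk* and *Nars2*.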

How the data were processed

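Total RNA of WT ASCs and *Bdh2*-knockout ASCs, 3 samples each, was extracted (with Trizol per the labels, with a column kit per the study's methods) and sequenced on an Illumina instrument. The authors trimmed low-quality reads and adaptors, mapped to GRCm38 (HISAT2 2.0.5 in the submitters' processing notes) and deposited raw counts per gene made with FeatureCounts. The annotation release, the strand setting and the treatment of reads with several matches are not given in the sources used here. The table holds whole numbers for 54715 genes in 6 libraries, with totals of 18927748 to 28333541 and 0 rows without a gene.

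All 37 genes of chromosome MT are in GENCODE M21 at the same position. Counts were tested with edgeR 4.0.16 in R 4.3.3 (TMM, filterByExpr, glmQLFit, glmQLFTest, genotype as the only factor), with Benjamini-Hochberg adjustment over 16758 genes and a threshold of 0.05. Library-wide values were compared by two-sided exact permutation tests. TPM was computed from the counts and listed gene lengths. Sharing with other genes was counted over 50-base stretches of GENCODE M21 transcripts, on both strands. On simulated counts with 200 changed genes of 16758, edgeR recovered 172 with 14 false calls, DESeq2 1.42.0 recovered 168 with 11, and limma-voom (limma 3.58.1) 170 with 13. Alternatives were DESeq2, limma-voom, other scalings and filters, a replicate block, a hepatocyte marker covariate and each library left out. Leaving out WT replicates 1 and 2 together, which leaves 1 WT library assumed to vary like the knockout libraries, and adding the counts of nuclear copies were chosen after seeing the data. Figures were drawn with matplotlib 3.10.9.

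The genes named are all genes of chromosome MT, *Bdh2*, up to 3 largest increases and up to 3 largest decreases among the called genes of each list for mitochondrial gene expression, and the nuclear copies. The members and lists were chosen with earlier results of these data known.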

Additional observations from a re-analysis of the deposited data

How the results depend on the processing

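The calls of mt-Rnr2, mt-Tl1, mt-Te and mt-Tl2 held in every one of the 17 alternatives run. The number of mitochondrial genes called was 8 and stayed between 6 and 10, except with no filter on low counts, where 15 of 35 were called. The median log2 fold change moved from 0.07 to 0.23 with the hepatocyte covariate (7 higher, 2 lower) and to 0.35 without WT replicates 1 and 2 (8 higher, 2 lower). The replicate numbers did not pair the samples: the correlations of same-numbered deviations from the group means were -0.154, 0.0995 and 0.245 for replicates 1, 2 and 3, and WT replicate 1 correlated best with *Bdh2*-knockout replicate 2 (0.312). With a replicate block, 9 mitochondrial genes (5 higher, 4 lower), 78 nuclear genes of mitochondrial gene expression, 21 nuclear subunits and 6452 genes in all were called, and the differences in the share, the rRNA ratio, the strand ratio and the ratio to nuclear subunits were -0.0984, 0.38, 0.04 and 0.08. The block also gave calls to mt-Nd2 (0.26), Gm28437 (-0.26) and Gm28439 (0.39) and ended those of *Twnk* (0.16) and *Slirp* (-0.37). Without WT replicates 1 and 2, the nuclear genes called were 47 for gene expression and 9 for subunits (11 with the hepatocyte covariate), and the share differed by 0.293. With 1 library left out, the ranges were 11 to 32 for subunits, -0.297 to 0.0829 for the share, -0.03 to 0.09 for the strand ratio (-0.13 without mt-Co1) and -0.04 to 0.19 for the ratio to nuclear subunits. Signs of uncalled genes turned as follows, and the cause was not tested. With library totals, mt-Nd1 was -0.05, mt-Nd6 -0.03 and mt-Tp -0.01, and with a mean count of at least 50 mt-Nd1 was -0.0033. With the hepatocyte covariate, mt-Ti was 0.24, mt-Co2 0.06, Gm10925 0.10 and Gm29216 0.16. Without WT replicates 1 and 2, mt-Rnr1 was 0.05, mt-Ti 0.51, mt-Co2 0.80, Gm10925 0.63, Gm28437 0.0069, Gm29216 0.25, *1110008L16Rik* -0.03 and *Tfam* 0.02, and the called mt-Co1 0.03. Summed with its copy, mt-Nd3 was -0.64. With 1 library left out, the values ran from -0.11 to 0.13 for mt-Nd1, -0.04 to 0.37 for mt-Tc, -1.09 to 0.50 for mt-Co2, -0.18 to 0.79 for mt-Atp8, -0.60 to 0.13 for mt-Atp6, -0.04 to 0.40 for mt-Nd3, -0.65 to 0.59 for mt-Nd4l, -0.10 to 0.20 for mt-Nd6, -0.05 to 0.18 for mt-Tp, -0.79 to 0.36 for Gm10925 and -0.16 to 0.12 for Gm29216. The filter on low counts left out 11 of 22 tRNAs, of which 2 had no counts at all.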
